A study of Mus musculus with 5 samples.

Results

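The small heat shock proteins and their co-chaperone BAG3 were followed in lymphatic endothelial cells (LECs) of mouse lymph nodes. The 6 genes were Cryab, Hspb1, Hspb6, Hspb8, Hspb11 and Bag3, taken by name from the 27843 genes of the count table. They were chosen by family, with their KO and WT counts and fold changes in this table already in view. What follows therefore describes their levels, and calls given for them are no independent test. LECs of C57BL/6 mice aged 8 weeks were sorted as CD31+ podoplanin+ cells that lacked CD45 and TER119. The KO group held 2 libraries from Ccl19 Cre Rankl flox/flox mice, in which Cre under Ccl19 control deletes the cytokine gene Rankl (Tnfsf11) in Ccl19-expressing stromal cells and not in LECs. The WT group held 3 libraries from Rankl flox/flox littermates, so both groups carried the floxed alleles and the WT mice had no Cre. The number of animals in a library is not stated, and p-values measure only the spread between these 5 libraries.

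Small heat shock proteins are chaperones that need no ATP. They bind unfolding proteins and the actin and intermediate filament cytoskeleton, and hold their clients for refolding or removal. BAG3 couples the HSP70 chaperones to small heat shock proteins, above all HSPB8, and directs damaged cytoskeletal clients such as filamin to autophagy. In endothelium HSPB1 is known as a regulator of actin that is phosphorylated downstream of the p38 kinase.

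Cryab, Hspb1, Hspb8 and Bag3 were higher in both KO libraries than in all 3 WT libraries, and Hspb6 and Hspb11 overlapped between the groups. Fold changes in KO over WT were 4.55 for Cryab, 4.34 for Hspb8, 3.25 for Hspb1 and 1.71 for Bag3. The plot of levels by library shows the 6 genes side by side. All 6 genes passed the filter on low counts, and 4 of the 6 were called higher and 0 lower at an adjusted p under 0.05 in the fit across all genes (edgeR quasi-likelihood, Benjamini-Hochberg). Over all 15874 genes tested, 3.25% were called higher and 3.99% lower. In 22.8% of all tested genes both KO libraries lay above all WT libraries, and in 45.4% the groups did not overlap. The calls came to 516 genes higher and 634 lower, and to 408 and 330 with library offsets fitted on exon length and GC content (the length and GC offset). Since this contrast was known when the genes were chosen, nothing is read from the difference between these shares. Sorted pools do not tell fewer cells that carry a transcript from less of it per cell.

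**Figure D1:**
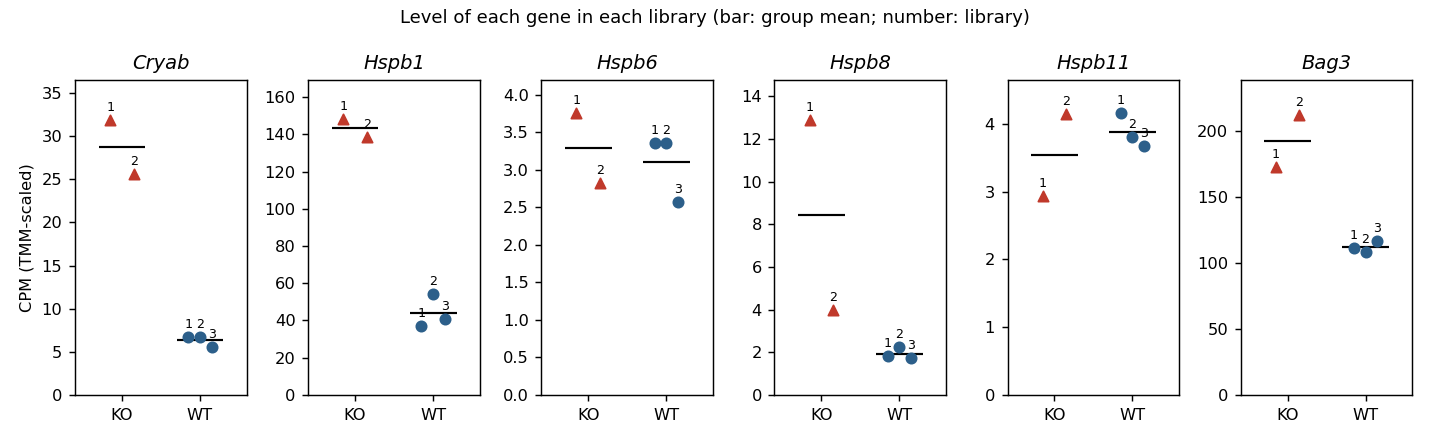
CPM (read counts scaled to a common library size, with TMM factors, vertical axes from 0 with a scale for each gene) in 2 KO libraries (triangles) and 3 WT libraries (circles), numbered by library, with a bar at each group mean. KO points lie above all WT points for Cryab, Hspb1, Hspb8 and Bag3, the 2 Hspb8 points in KO lie apart at 12.9 and 3.99 CPM, and the groups overlap for Hspb6 and Hspb11.

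Libraries held 53301671 and 59725200 reads in KO 1 and KO 2, against 70171307, 62247678 and 52839375 in WT 1 to WT 3, so 1 CPM stood for 52.0 to 71.0 reads after scaling. Spearman correlations of log2 CPM were 0.9824 between the KO libraries, 0.9902 to 0.9929 among WT and 0.9773 to 0.9801 between groups. The LEC marker Prox1 and Pecam1, the gene of CD31 that the sort selects for, were abundant in every library. Prox1 stood at 884 and 851 CPM in KO against 1383 to 1577 CPM in WT, and Pecam1 at 1347 and 1311 CPM in KO against 1320 to 1337 CPM in WT. Prox1 was called lower in KO (log2 fold change -0.75 ± 0.11, SE, adjusted p = 0.019 by edgeR), a call lost without WT 2 and without WT 3. Among 12 lymphatic endothelial markers Stab2 and Itga9 were called lower too, and Ccl21a and Mmrn1 higher. Ptprc, the CD45 gene that the sort selects against, stood at 2.39 and 2.89 CPM in KO and 2.15 to 2.73 CPM in WT. Tnfsf11 had 9 and 0 reads in KO and 27, 13 and 9 reads in WT, and LECs are not where it was deleted, so the genotype is not checked by these reads. Tnfrsf11a, the RANKL receptor gene, stood at 225 ± 44.0 CPM in KO (SD, n = 2) and 220 ± 0.635 CPM in WT (SD, n = 3).

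Around the start sites of 4 of these genes the same 8 letters were found. Heat shock transcription factors bind heat shock elements, arrays in which the unit GAA and its reverse complement TTC alternate, spaced by 2 bases. RefSeq promoter windows (250 bases before to 50 after a start, GRCm38.p6) were matched for 5 of the 6 genes, all but Cryab. Positions count from these RefSeq starts, which for Hspb6, Hspb11 and Bag3 differ from the GENCODE gene starts given below. The 2-unit letters GAANNTTC were present in windows of Hspb1, Hspb6, Hspb8 and Bag3, and absent from that of Hspb11. Among all 27025 genes with a window, 9.04% held GAANNTTC on either strand. In each of the 4 genes 1 match read GAAGTTTC, which 1.35% of all genes held on either strand. That exact string was picked after the sequences were seen. The stretches of 30 bases around each match are printed 5′ to 3′ on the gene's strand, with GAANNTTC in capitals, because they show the string that Hspb1, Hspb6, Hspb8 and Bag3 share.
Hspb1, first match: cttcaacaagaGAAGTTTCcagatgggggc
Hspb1, second match: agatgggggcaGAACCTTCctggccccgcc
Hspb6: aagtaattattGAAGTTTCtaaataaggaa
Hspb8: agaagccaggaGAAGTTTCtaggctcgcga
Bag3: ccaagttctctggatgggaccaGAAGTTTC

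The Hspb1 stretches lie on the plus strand at chr5:135887791-135887820 and chr5:135887811-135887840, with matches that begin 117 and 97 bases before the start (positions -117 and -97). The Hspb6 stretch lies on the plus strand at chr7:30553170-30553199 and its match begins at position -120 of the second of 2 annotated starts. A TATAAA box begins at position -29 of that start, and 15.7% of all genes hold TATAAA on either strand in a window. The window of the first Hspb6 start, with 0 matches to GAANNTTC, holds CCAAT 4 times on either strand, and CCAAT is found in 41.1% of all genes. The Hspb8 stretch lies on the minus strand at chr5:116422844-116422873, and its match begins at position 3, just after the start. The Bag3 stretch lies on the plus strand at chr7:128523603-128523632, and its match begins at position 43 and ends with the window. The reversed pair TTCNNGAA was present in 0 of the 5 genes with a window and in 9.6% of all genes. The 3-unit letters GAANNTTCNNGAA or TTCNNGAANNTTC were also present in 0 of the 5, and in 0.662% of all genes. Of the 17 genes with a window among 22 heat shock factor 1 targets outside the family, 8 held GAANNTTC and 0 held GAAGTTTC. In the same 17 genes, 5 held TTCNNGAA and 4 held the 3-unit letters. Among the other small heat shock genes 1 of 4 with a window held GAANNTTC (Hspb3), and among the other BAG genes 0 of 4. A match describes letters and is not a bound site, and Hspb6, whose groups overlapped, carries it too.

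Hspb1 had 2 matches, and the 250 bases before its start are printed whole to show their spacing, followed by those of Hspb11, which has 0 matches. Both are on the plus strand, at chr5:135887669-135887918 and chr4:107253442-107253691. The Hspb11 stretch runs past 107253593, where GENCODE starts the gene.
Hspb1: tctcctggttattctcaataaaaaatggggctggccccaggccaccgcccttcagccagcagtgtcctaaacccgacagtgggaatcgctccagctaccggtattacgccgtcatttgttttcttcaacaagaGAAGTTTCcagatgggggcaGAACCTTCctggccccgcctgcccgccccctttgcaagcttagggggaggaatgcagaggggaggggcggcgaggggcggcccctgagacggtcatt
Hspb11: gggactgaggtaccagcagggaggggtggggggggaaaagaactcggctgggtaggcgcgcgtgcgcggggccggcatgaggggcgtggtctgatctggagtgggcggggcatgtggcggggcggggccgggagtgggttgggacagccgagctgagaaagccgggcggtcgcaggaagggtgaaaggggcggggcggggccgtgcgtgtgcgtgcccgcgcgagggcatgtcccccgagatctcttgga

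Cryab encodes alpha-B-crystallin, a chaperone of desmin and other filaments that is abundant in lens and muscle. Cryab (ENSMUSG00000032060, chromosome 9, 50751325 to 50756636, GRCm38, plus strand) stood at 31.9 and 25.6 CPM in KO 1 and KO 2, against 6.74, 6.66 and 5.52 CPM in WT 1 to WT 3. The lowest KO library was 3.80 times the highest WT library, and the KO libraries differed from each other by 1.25 times. The log2 fold change was 2.19 ± 0.15 (SE), larger in size than that of 98.2% of tested genes. It was 2.01 without KO 1 and 2.33 without KO 2, and Cryab was called with any 1 library left out. Without WT 3 only 11 genes of the whole table were called, and Cryab was one of them.

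Cryab shares 252 of its 1479 exon bases, or 17.0%, with Hspb2, a muscle chaperone gene that lies head to head with it on the minus strand. The library kit does not keep the strand, so reads there cannot be assigned to either gene. Hspb2 had 0.456 and 0.601 CPM in KO and 0.169, 0.304 and 0.250 CPM in WT. Both KO values lay above the 3 WT values, but Hspb2 did not pass the test (log2 fold change 1.13 ± 0.50, SE, adjusted p = 0.2 by edgeR). At these levels the Hspb2 reads amounted to a small part of those counted for Cryab in every library.

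Hspb1 encodes HSP25 in mouse (HSP27 in human), a widely expressed small heat shock protein that binds actin filaments. Hspb1 (ENSMUSG00000004951, chromosome 5, 135887919 to 135889563, plus strand) stood at 148 and 139 CPM in KO 1 and KO 2, against 37.2, 54.4 and 41.0 CPM in WT 1 to WT 3. The KO libraries lay close together, 1.07 times apart, while the WT libraries spanned 1.47 times with WT 2 highest. The lowest KO library was 2.55 times the highest WT library. The log2 fold change was 1.70 ± 0.16 (SE), and 1.59 to 1.88 with 1 library left out. Hspb1 lost its call without WT 3, at a log2 fold change of 1.65.

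Hspb8 encodes HSP22, the small heat shock protein that pairs most stably with BAG3. Hspb8 (ENSMUSG00000041548, chromosome 5, 116408491 to 116422864, minus strand) stood at 12.9 CPM in KO 1 and 3.99 CPM in KO 2, against 1.84, 2.26 and 1.71 CPM in WT 1 to WT 3. These were 705 and 232 reads in KO and 131, 141 and 89 reads in WT. Both KO libraries lay above WT, but KO 1 was 3.23 times KO 2 and KO 2 was 1.77 times the highest WT library. The log2 fold change was 2.12 ± 0.45 (SE). It was 1.03 without KO 1, where Hspb8 lost its call, and 2.72 without KO 2, where it kept it. Without each of WT 1, WT 2 and WT 3 the call was also lost, at 2.08, 2.24 and 2.04. The call did not hold either with library totals alone (2.14), with all genes of 1 read or more tested (2.11), with limma-voom (1.87) or with the length and GC offset (1.99).

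Bag3 encodes the co-chaperone that joins HSPB8 to HSP70. Bag3 (ENSMUSG00000030847, chromosome 7, 128523616 to 128546981, plus strand) stood at 173 and 212 CPM in KO 1 and KO 2, against 112, 109 and 117 CPM in WT 1 to WT 3. The WT libraries lay within 1.08 times of each other, and the lowest KO library was 1.48 times the highest of them. The log2 fold change was 0.78 ± 0.11 (SE), smaller than those of Cryab, Hspb1 and Hspb8. KO 2 was the higher KO library for Bag3, whereas KO 1 was the higher one for Cryab, Hspb1 and Hspb8. Bag3 lost its call without WT 1 (0.77), without WT 2 (0.75) and without WT 3 (0.80), and kept it without KO 1 (0.91) and without KO 2 (0.62).

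Hspb6 encodes HSP20, a muscle small heat shock protein that cyclic nucleotide dependent kinases phosphorylate. Hspb6 (ENSMUSG00000036854, chromosome 7, 30552178 to 30555443, plus strand) stood at 3.76 and 2.82 CPM in KO 1 and KO 2, against 3.36, 3.36 and 2.58 CPM in WT 1 to WT 3. KO 1 was the highest of the 5 libraries and KO 2 lay inside the WT range. The log2 fold change was 0.083 ± 0.24 (SE), and its sign turned without KO 1 (-0.15), without WT 3 (-0.035) and under the length and GC offset (-0.048). Of its exon bases 8.8% are shared with the neighbouring genes Gm38670, Lin37 and Proser3.

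Hspb11 carries a heat shock name, but its protein is IFT25, a subunit of intraflagellar transport complex B that binds IFT27 and moves signalling proteins in the cilium. Hspb11 (ENSMUSG00000063172, chromosome 4, 107253593 to 107279938, plus strand) stood at 2.94 and 4.14 CPM in KO 1 and KO 2, against 4.17, 3.81 and 3.67 CPM in WT 1 to WT 3. KO 1 was the lowest of the 5 libraries and KO 2 lay inside the WT range. The log2 fold change was -0.13 ± 0.22 (SE), and 0.086 without KO 1. For Hspb6 and Hspb11 these depths were 161 to 241 reads in KO and 134 to 296 reads in WT. They gave standard errors near 0.24 and 0.22 on the log2 scale, and a change of that size was not detectable. Changes well above it can go uncalled too. Des, with a smaller standard error of 0.19, was not called at a log2 fold change of 0.64.

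Levels of the genes can be compared with each other only per length, here as RPKM (CPM per kilobase of annotated exon). In KO the order was Hspb1 at 139 ± 6.66 RPKM, Bag3 at 75.2 ± 10.8, Cryab at 19.4 ± 3.01, Hspb8 at 4.32 ± 3.22, Hspb11 at 1.71 ± 0.41 and Hspb6 at 1.43 ± 0.29 RPKM (SD, n = 2). In WT it was Bag3 at 43.9 ± 1.69 RPKM, Hspb1 at 42.9 ± 8.78, Cryab at 4.27 ± 0.462, Hspb11 at 1.88 ± 0.123, Hspb6 at 1.35 ± 0.197 and Hspb8 at 0.994 ± 0.146 RPKM (SD, n = 3). Bag3 and Hspb1 overlapped in WT and were apart in KO, where Hspb1 was higher in both libraries. Hspb6 overlapped with Hspb11 in KO and with Hspb8 in WT. The 6 genes together came to 243 and 240 RPKM in KO 1 and KO 2, against 88.6, 104 and 93.0 RPKM in WT 1 to WT 3, as the stacked plot shows. Hspb1 made up 59.3% and 56.1% of this sum in KO and 40.7% to 50.7% in WT, and Bag3 27.8% and 34.5% in KO and 40.7% to 49.2% in WT. By mean RPKM over all libraries Hspb1 lay at percentile 96.2 of tested genes, Bag3 at 94.6, Cryab at 76.0, Hspb8 at 48.9, Hspb11 at 44.7 and Hspb6 at 40.7.

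**Figure D2:**
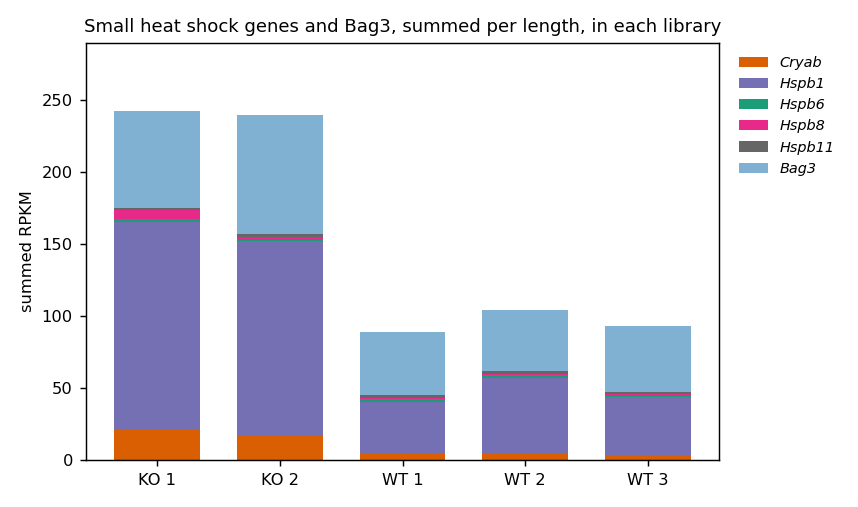
RPKM (vertical axis, from 0) of the 6 genes stacked in each of 2 KO and 3 WT libraries, 1 colour for each gene. The stacks reach 243 and 240 RPKM in KO and 88.6 to 104 RPKM in WT, and Hspb1 and Bag3 fill most of each.

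The other small heat shock genes were near the detection limit. Hspb9, a testis gene, had 0.128 and 0.223 CPM in KO and 0.267, 0.288 and 0.365 CPM in WT (log2 fold change -0.79 ± 0.56, SE, adjusted p = 0.42 by edgeR). Cryaa, the lens alpha-A-crystallin, had 0 and 0.0516 CPM in KO and 0.128 to 0.169 CPM in WT, and Hspb7, a heart and muscle gene, had 0.0365 and 0.138 CPM in KO and 0 to 0.113 CPM in WT. Both fell below the filter on low counts and were not tested. Hspb3 and Odf1 are not among the genes of the count table, so their levels are unknown here. Of the 2 that were tested, 0 passed by edgeR (0 at an unadjusted p under 0.05), and DESeq2 and limma-voom called 0 as well.

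Of the 5 other BAG genes, 1 passed the test. Bag5, a nucleotide exchange factor of HSP70 with several BAG domains, stood at 83.8 and 68.9 CPM in KO, against 47.6, 52.4 and 53.3 CPM in WT. It rose by a log2 fold change of 0.58 ± 0.11 (SE, adjusted p = 0.032 by edgeR). The call was lost without each of WT 1, WT 2 and WT 3 (0.53 to 0.61), and under the length and GC offset (0.50). Bag1 was at 115 and 112 CPM in KO and 92.7 to 95.8 CPM in WT (0.26 ± 0.08, SE, adjusted p = 0.088). Bag2, Bag4 and Bag6 overlapped between the groups, with log2 fold changes of -0.10 ± 0.19, -0.04 ± 0.17 and -0.18 ± 0.10 (SE).

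The heat shock factor genes did not pass the test, and 2 of their known targets outside the family did. Hsf1, the main heat shock transcription factor, had 34.3 and 39.9 CPM in KO and 28.6 to 33.7 CPM in WT (log2 fold change 0.28 ± 0.12, SE, adjusted p = 0.19 by edgeR). Hsf3 stayed below 1 CPM in all libraries (0.34 ± 0.59, adjusted p = 0.76). Of the 6 tested heat shock factor genes and regulators, 0 passed by edgeR, 0 at an unadjusted p under 0.05, and 0 with DESeq2 or limma-voom. Of 22 heat shock factor 1 targets outside the family, 2 rose and 0 fell, and their median log2 fold change was 0.12 beside -0.0015 over all tested genes. The 2 were Hspa1b, at 316 and 337 CPM in KO against 182 to 218 CPM in WT (0.69 ± 0.10, SE, adjusted p = 0.02 by edgeR), and Hspa1a, at 143 and 159 CPM in KO against 74.7 to 108 CPM in WT (0.74 ± 0.16, adjusted p = 0.041). These inducible HSP70 genes are near-identical copies, so the split of reads between them is uncertain. Hspa1b lost its call without WT 2 (0.62) and without WT 3 (0.70). Hspa1a lost it there (0.62 and 0.72), without KO 2 (0.65) and under the length and GC offset (0.65). The constitutive Hspa8 was at 1278 and 1776 CPM in KO and 1348 to 1706 CPM in WT, Dnajb1 had a log2 fold change of 0.12 ± 0.10, and the mitochondrial pair Hspd1 and Hspe1 had 0.02 ± 0.10 and -0.02 ± 0.17. Of the 22, 17 had positive and 5 negative log2 fold changes. Both KO libraries lay above all WT libraries in 6 of the 22 and below in 1. Over all tested genes they lay above in 22.8%. Dnajb4 (0.36 ± 0.09, SE, adjusted p = 0.065 by edgeR) and Hsph1 (0.42 ± 0.13, SE, adjusted p = 0.096) were above in both without passing. DESeq2 called 4 of the 22 higher and 0 lower. No test compared Cryab, Hspb1, Hspb6, Hspb8, Hspb11 and Bag3 with this list.

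**Figure D3:**
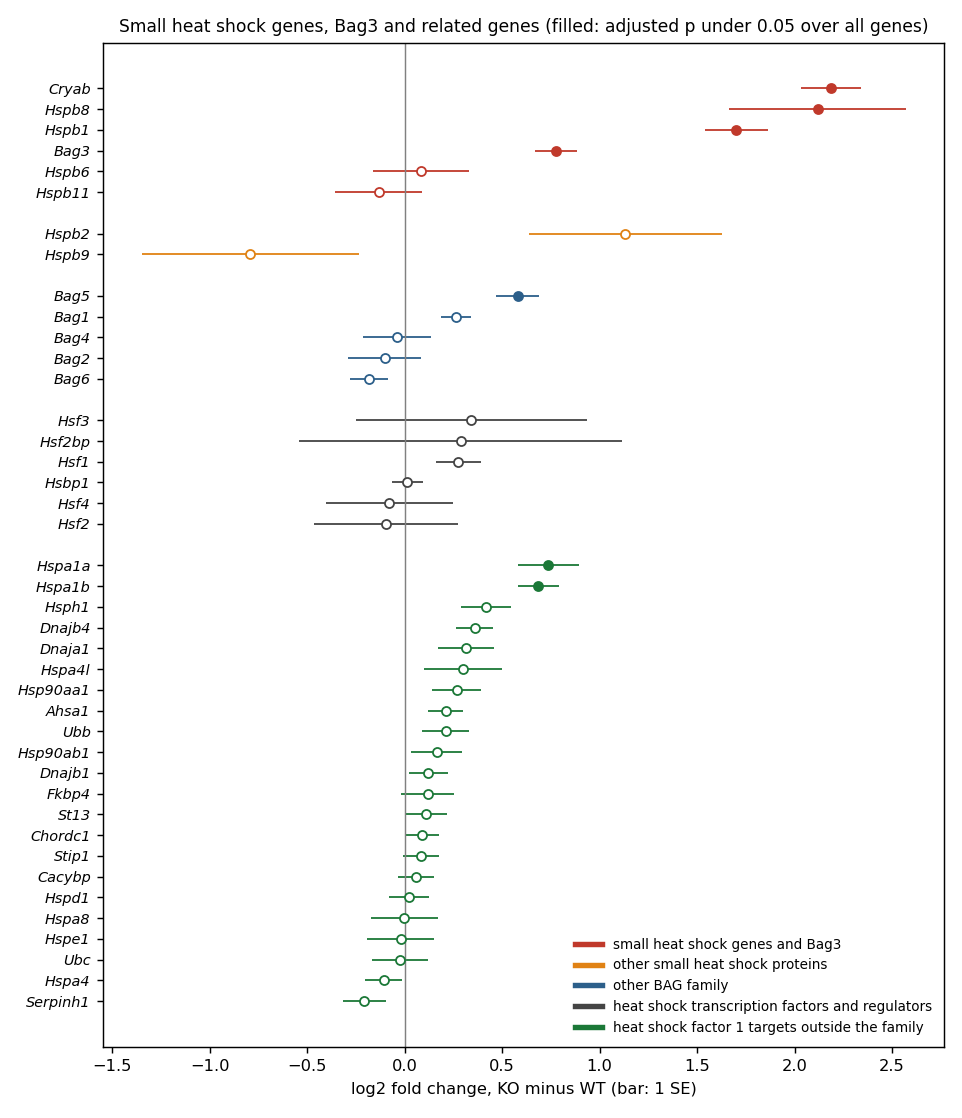
Log2 fold change, KO minus WT (horizontal axis), of each tested gene in 5 groups, with bars of 1 SE; filled points passed an adjusted p of 0.05 over all genes. Cryab, Hspb8 and Hspb1 lie between 1.70 and 2.19, Bag3 at 0.78, and the heat shock factor 1 targets outside the family between -0.21 and 0.74.

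Of 25 genes that work with BAG3 in chaperone-assisted autophagy and cytoskeletal tension sensing, 2 rose and 1 fell, and the median log2 fold change was 0.08. The 2 that rose were Hspa1a and Hspa1b, which the heat shock factor list holds as well. Flnc, which encodes filamin C, a BAG3 client, fell to 21.8 and 29.0 CPM in KO, against 41.2, 67.9 and 51.8 CPM in WT (log2 fold change -1.08 ± 0.23, SE, adjusted p = 0.041 by edgeR). Its call was lost without any 1 of the 5 libraries (-1.30 to -0.87), with genes of low count kept in (-1.09) and under the offset (-0.88). Synpo, whose relative Synpo2 binds BAG3, was at 151 and 155 CPM in KO and 83.8 to 115 CPM in WT without passing (0.57 ± 0.14, SE, adjusted p = 0.059). The autophagy receptor Sqstm1 stood at 6285 and 6341 CPM in KO and 3516 to 4721 CPM in WT (0.57 ± 0.15, SE, adjusted p = 0.068). DESeq2 called 7 of the 25 higher and 3 lower.

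Among the cytoskeletal clients of small heat shock proteins all 12 tested genes had positive log2 fold changes, of which 1 passed (median 0.57). Over all 15874 tested genes 7924 were positive. The groups overlapped in 5 of the 12, and Gfap (0.06 ± 1.35, SE), Krt18 (1.34 ± 1.04, SE) and Krt8 (2.87 ± 1.29, SE) had wide errors. Actg1, cytoplasmic gamma-actin, rose to 3825 and 3299 CPM in KO, against 2167 to 2515 CPM in WT (0.62 ± 0.12, SE, adjusted p = 0.036 by edgeR). It lost its call without each of WT 1, WT 2 and WT 3 (0.57 to 0.68), and under the length and GC offset (0.53), and reads of such closely related actin genes are uncertain. The cytolinker gene Plec was at 500 and 434 CPM in KO and 316 to 367 CPM in WT (0.44 ± 0.11, SE, adjusted p = 0.06), and the intermediate filament gene Vim at 1436 and 1188 CPM in KO and 910 to 1011 CPM in WT (0.44 ± 0.12, SE, adjusted p = 0.069). DESeq2 called 6 of these 12 higher and 0 lower.

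Of 14 kinases that act on HSPB1 or HSPB6 or upstream of them, 0 passed by edgeR, 6 at an unadjusted p under 0.05. DESeq2 called 1 higher and 1 lower, and limma-voom 0. The stress kinase gene Map3k5 had 5.66 and 8.16 CPM in KO and 10.8 to 12.4 CPM in WT (-0.72 ± 0.19, SE, adjusted p = 0.067 by edgeR), and the cyclic GMP dependent kinase gene Prkg1 3.52 and 2.68 CPM in KO and 1.097 to 1.714 CPM in WT (1.07 ± 0.30, SE, adjusted p = 0.075). Of 18 tested genes of intraflagellar transport complex B and its associates, the company of Hspb11, 0 rose and 1 fell (median 0.05). Ift172 fell to 32.9 and 29.2 CPM in KO, against 42.5 to 49.8 CPM in WT (-0.54 ± 0.11, SE, adjusted p = 0.041 by edgeR). It lost its call without KO 2 (-0.46), without each WT library (-0.58 to -0.46), with library totals alone (-0.53) and under the length and GC offset (-0.44). Ift80 had a log2 fold change of -0.42 ± 0.19 (SE, adjusted p = 0.21).

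Cell sorting itself can induce stress genes. Of 17 dissociation and immediate early genes, 1 rose and 0 fell (median 0.15), and their summed level was 13650 and 19070 CPM in KO against 13350 to 15420 CPM in WT. Ier3 rose to 453 and 490 CPM in KO, against 330 to 370 CPM in WT (0.45 ± 0.10, SE, adjusted p = 0.044 by edgeR), and lost its call without KO 2 (0.38), without each WT library (0.41 to 0.50), and under the length and GC offset (0.30). Fosb was at 596 and 622 CPM in KO and 775 to 811 CPM in WT (-0.37 ± 0.09, SE, adjusted p = 0.058). KO 2 was the library with the higher sum. It was also the KO library with more Bag3, while KO 1 had more Cryab and Hspb8 and, by 1.07 times, more Hspb1. The part of sorting stress in the heat shock genes was not tested.

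Cryab, Hspb6 and Hspb8 are abundant in muscle, so markers of muscle cells were read in the same libraries. Of 14 smooth muscle and pericyte markers 12 were tested, and 3 rose and 0 fell (median 0.66). Their summed level was 197 and 157 CPM in KO, against 117 to 153 CPM in WT. Rgs5, Kcnj8 and Mcam carry much of this sum, with Mcam at 35.4 and 28.6 CPM in KO and 21.1 to 23.3 CPM in WT. The sum therefore shows little of the markers at low levels. Acta2, smooth muscle actin, stood at 35.8 CPM in KO 1 and 4.50 CPM in KO 2, against 1.76 to 1.94 CPM in WT (3.44 ± 0.73, SE, adjusted p = 0.042 by edgeR). Kcnj8 (0.69 ± 0.13, SE, adjusted p = 0.029) and Mcam (0.54 ± 0.12, SE, adjusted p = 0.048) rose as well. All 3 lost their calls without WT 2 and without WT 3. Acta2 kept its call without KO 1 at a log2 fold change of 1.27. It lost it without WT 1, with genes of low count kept in (3.44), under the length and GC offset (3.36) and with limma-voom (2.74). Mcam lost its call without WT 1, without KO 1 (0.37), with library totals alone (0.54), with limma-voom and under the offset. Kcnj8 was at 50.9 and 52.9 CPM in KO against 27.6 to 36.6 CPM in WT, and so about even between the KO libraries. Both KO libraries also lay above all WT libraries for Tagln, at 7.69 and 6.98 CPM in KO against 2.46 to 5.00 CPM in WT (1.03 ± 0.30, SE, adjusted p = 0.082), and for Des, at 5.73 and 7.08 CPM in KO against 3.64 to 4.55 CPM in WT (0.64 ± 0.19, SE, adjusted p = 0.091). Myh11 was at 4.80 and 2.61 CPM in KO against 1.39 to 3.29 CPM in WT, and Cnn1 at 2.54 and 0.309 CPM in KO against 0.0192 to 0.465 CPM in WT. Of the 12 tested, 9 had positive and 3 negative log2 fold changes, and the 3 did not pass. Rgs5 lay below all WT libraries in KO, at 43.8 and 48.1 CPM against 48.45 to 74.8 CPM in WT (-0.33 ± 0.20, SE). Pdgfrb (-0.28 ± 0.42, SE) and Notch3 (-0.34 ± 0.82, SE) overlapped between the groups. Lmod1 and Myocd were below 0.2 CPM in every library. Some of these markers thus differed between KO 1 and KO 2, as Hspb8 did, and others were about even, as Cryab and Hspb1 were. Without KO 1 the log2 fold change was 2.01 for Cryab, 1.64 for Hspb1 and 1.03 for Hspb8. The part of muscle cell transcripts in the levels of Cryab, Hspb1 and Hspb8 was not tested. Of 10 striated muscle markers with counts, 2 were tested and 0 passed by edgeR (0 at an unadjusted p under 0.05, and 0 with DESeq2 or limma-voom). They summed to 0.840 and 0.756 CPM in KO and 0.577 to 0.957 CPM in WT, with Myh4 and Tnnt3 at 0 reads in all 5 libraries.

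Markers of blood endothelium, in which HSPB1 is abundant too, mostly had positive log2 fold changes (14 of 17). Of 17 tested, 9 rose, 1 fell and 7 did not pass (median 1.09). Those that rose included Gpihbp1 at 17.9 and 16.3 CPM in KO against 6.63 to 7.10 CPM in WT (1.31 ± 0.12, SE, adjusted p = 0.0098 by edgeR) and Cd34 at 63.3 and 80.5 CPM in KO against 15.04 to 25.02 CPM in WT (1.94 ± 0.23, SE, adjusted p = 0.013). Both kept their calls with 1 library left out except without WT 3. Kdr, which encodes VEGF receptor 2 and which LECs express as well, fell to 1202 and 1152 CPM in KO, against 1793 to 2027 CPM in WT (-0.70 ± 0.11, SE, adjusted p = 0.02), and lost its call without each WT library and under the length and GC offset (-0.54). Both KO libraries lay above all WT libraries in 12 of the 17 and below in 1, and the groups overlapped in 4. Over all tested genes both KO libraries lay above all WT libraries in 22.8%. The list summed to 6656 and 7186 CPM in KO and 6376 to 6852 CPM in WT, so that the sums overlapped, and 0 of its genes were at 0 reads in all libraries. Abundant genes such as Kdr and Plvap carry much of this sum, with Plvap at 2786 and 3626 CPM in KO and 2455 to 2808 CPM in WT. The sum therefore does not show the markers at low levels. Of 4 tested adipocyte markers 3 rose and 0 fell (median 2.04). Car3 was at 2.99 and 0.791 CPM in KO against 0.0577 to 0.211 CPM in WT (4.02 ± 0.78, SE). Fabp4 was at 378 and 476 CPM in KO against 187.5 to 235 CPM in WT (1.03 ± 0.14, SE). Pparg was at 48.6 and 50.2 CPM in KO against 34.85 to 38.2 CPM in WT (0.44 ± 0.09, SE). Car3 and Pparg lost their calls without each WT library. Of 11 macrophage markers 1 rose and 2 fell, and of 14 fibroblastic reticular markers 0 rose and 1 fell. Of 12 lymphatic endothelial markers 2 rose and 3 fell. Of 5 leukocyte and erythroid genes 0 passed by edgeR (0 at an unadjusted p under 0.05, and 0 with DESeq2 or limma-voom). Without WT 3, 0 genes of the 17 other lists were called by edgeR. Whether the blood endothelial transcripts take part in the levels of Cryab, Hspb1, Hspb8 or Bag3 was not tested.

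The genes with profiles closest to each of the 6 were found by the root mean square difference of log2 CPM over the 5 libraries, after subtraction of the WT mean, among 10755 genes. Closest to Cryab were the water channel gene Aqp1 (0.18 log2 units), at 431 and 244 CPM in KO against 60.8 to 79.8 CPM in WT, and the brain-type creatine kinase gene Ckb (0.22). Closest to Hspb1 were Ndrg2 (0.12), with a log2 fold change of 1.74, and Tm6sf2 (0.14). Closest to Hspb8 were the calcium-binding protein gene S100a6 (0.08), at 41.9 and 14.2 CPM in KO against 6.33 to 8.66 CPM in WT, and the membrane scaffold gene Stom (0.11), at 76.8 and 26.4 CPM in KO against 11.6 to 13.3 CPM in WT. These 2 share with Hspb8 the gap between KO 1 and KO 2. Closest to Bag3 were the sialyltransferase gene St3gal3 (0.04) and Fam207a (0.06). Closest to Hspb6 were Vangl2 and Birc5 (0.02 and 0.03), and to Hspb11 Mmachc and Snrnp70 (0.03 and 0.04). The neighbours of Cryab, Hspb1, Hspb8 and Bag3 were called higher and those of Hspb6 and Hspb11 were not called, which their selection by profile fixes.

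The plot of fold changes by setting shows how far each value moved. Cryab stayed between 2.01 and 2.33 over all 13 alternatives and lost its call in 1 of them, the fit with the replicate number as a block, in which 0 genes of the table were called. Hspb1 stayed between 1.49 and 1.88. Bag3 stayed between 0.62 and 0.91. Hspb8 ranged from 1.03 without KO 1 to 2.72 without KO 2, and Hspb6 and Hspb11 crossed 0.

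**Figure D4:**
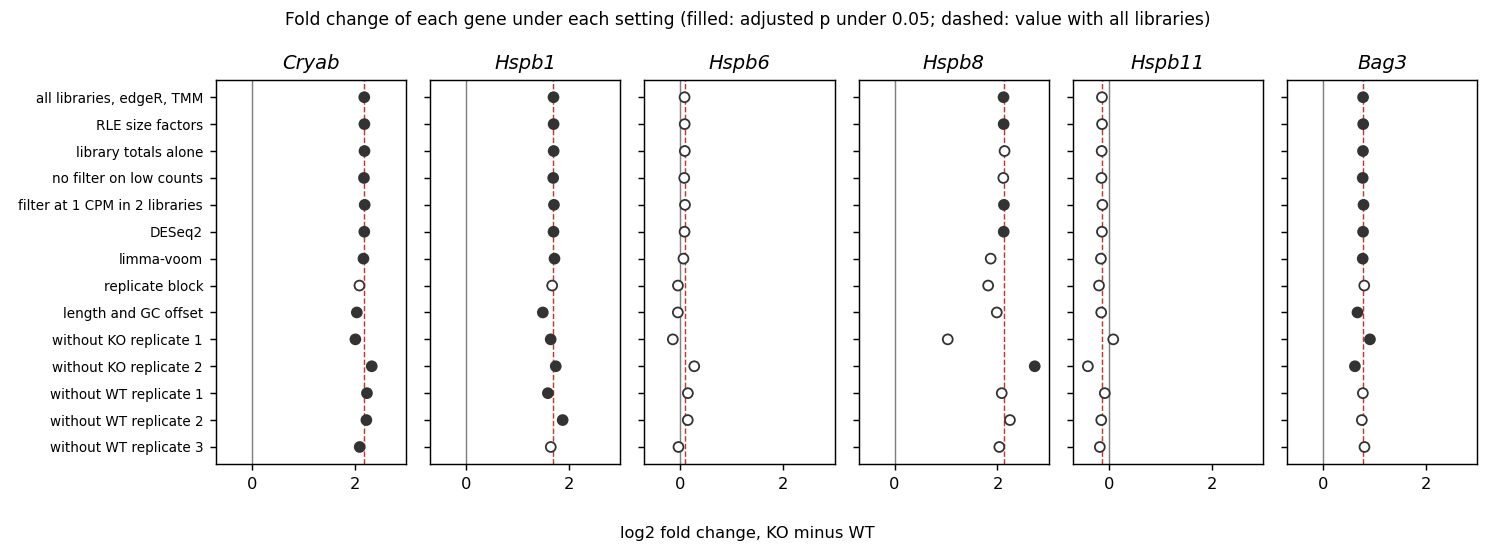
Log2 fold change, KO minus WT (horizontal axes), of each of the 6 genes under 14 settings (rows), filled where the adjusted p was under 0.05, with a dashed line at the value from all libraries. Cryab and Hspb1 keep narrow ranges, Hspb8 spreads from 1.03 to 2.72, and Hspb6 and Hspb11 lie around 0.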

How the data were processed

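RNA of sorted LECs was amplified as full-length cDNA with the SMART-Seq v4 kit and tagmented with Nextera XT, per the labels' protocols, which keeps neither strand nor molecular identifiers. The deposited values are raw counts of reads for each Ensembl gene and library, as the headers state. Among the tools in the submitters' processing notes are HTSeq 0.6.1, Bowtie2 2.1.0, TopHat2 2.0.14 and bcl2fastq 2.17.1.14, with the build mm10. No source used here gives their settings, the annotation or the handling of multiply mapped reads. Of 27843 genes, 27648 matched GENCODE M21 (the same build), which gave symbols, positions and exon lengths.

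The test was that of edgeR 4.0.16 in R 4.3.3 (filterByExpr with minimum count 10, TMM, robust quasi-likelihood F test in its legacy form, Benjamini-Hochberg, threshold 0.05), tried first on simulated counts. Log2 fold changes are KO minus WT, and SE is their size over the square root of F. Alternatives used DESeq2 1.42.0 and limma 3.58.1. The 6 genes and the 17 other gene lists were chosen with earlier results of these data known. The rule names, from each list, up to 4 genes that passed with the smallest p, or the 2 smallest p where fewer than 2 passed. For the cell type lists only some of these are given, and Prox1, Pecam1, Ptprc, Hspa8, Dnajb1, Hspd1, Hspe1, Synpo, Sqstm1, Vim, Tagln, Des, Myh11, Cnn1, Lmod1 and Myocd were added after their values were seen. So were Rgs5, Pdgfrb, Notch3, Plvap, Mmrn1, Gfap, Krt8, Krt18, Dnajb4 and Hsph1. The test had no replicate block. The promoter motif search came after the counts had been read.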

Additional observations from a re-analysis of the deposited data

How the results depend on the processing

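With all libraries 516 genes were higher and 634 lower in KO by edgeR. DESeq2 called 1205 and 1457, a threshold of 0.1 gave 1188 and 1358, and the length and GC offset left 330 lower. With 1 library left out the number called ranged from 2 to 784 higher and from 9 to 1125 lower. Without WT 3 it was 2 and 9, without WT 1 135 and 131, and without WT 2 78 and 95. Without KO 1 1125 were lower, and without KO 2 784 were higher. Of the 6 genes described here, 1 to 4 were called higher with 1 library left out. With 1 library left out the log2 fold change ran from 2.01 to 2.33 for Cryab, 1.59 to 1.88 for Hspb1, 1.03 to 2.72 for Hspb8, 0.62 to 0.91 for Bag3, -0.15 to 0.27 for Hspb6 and -0.41 to 0.086 for Hspb11. The sign of Hspb6 turned without KO 1 (-0.15), without WT 3 (-0.035) and under the length and GC offset (-0.048), and that of Hspb11 without KO 1 (0.086). Hspb8 lost its call with library totals alone (2.14), without a filter on low counts (2.11), with limma-voom (1.87) and with the offset (1.99). The cause was not tested. RLE size factors and a filter at 1 CPM in 2 libraries changed no call among the 6 genes.

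KO and WT share replicate numbers 1 and 2, and nothing in the labels says that a number marks a litter or day. Deviations from the group means of same-numbered libraries correlated at 0.048 (KO 1 with WT 1) and -0.052 (KO 2 with WT 2). With 2 KO libraries the deviations of KO 1 and KO 2 mirror each other (KO 2 with WT 1 gave -0.048). These values therefore cannot decide whether a shared number marks a litter or day. With the replicate block 0 genes were higher and 0 lower by edgeR (2808 at an unadjusted p under 0.05), and 0 of the 6 were called. Log2 fold changes there were 2.09 for Cryab, 1.67 for Hspb1, 1.82 for Hspb8, 0.80 for Bag3 and -0.046 for Hspb6. The block leaves few degrees of freedom.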
